A study of Mus musculus with 2 samples.

Results

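The genes described here are 8 genes of red blood cells: the adult globin genes Hbb-bs, Hbb-bt and Hba-a1, the transcription factor genes Klf1 and Nfe2, the heme synthesis gene Alas2, the erythropoietin receptor gene Epor and the anion exchanger gene Slc4a1. They were taken as a list of names, chosen with earlier results of these data known, and all 8 were found among the 21853 protein-coding genes of the annotation. For each of them every DNase peak within 1000 bp of a coding transcription start site (TSS) was collected as a promoter peak. A distal peak is any other peak, given to the gene with the nearest coding TSS when that lies within 100 kb. In addition, every peak and hotspot within 60 kb of the beta globin and of the alpha globin genes was collected.

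The chromatin came from thymus of B6NCrl mice at postnatal day 0, with males and females pooled, and no treatment is labelled. There were 2 replicates of this 1 group, with different biosamples and the same donor label, so the spread between them may be technical in part. DNase-seq sequences the DNA ends that the nuclease DNase I leaves where chromatin is accessible. Each replicate has a list of 150 bp peaks with a score between 1 and 150, and a list of hotspots, which are regions of raised cleavage of varying width with a −log10 q-value. The sources used here do not say what the score counts, and it served only to rank peaks within a list.

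In red cell precursors the globin genes are switched on by distant control regions. The beta globin genes follow a locus control region, a row of hypersensitive sites upstream of the embryonic gene Hbb-y, and the alpha globin genes follow enhancers inside the introns of the neighbouring gene Nprl3. The factors known for acting there are GATA1 with TAL1, which read GATA and E-box words, KLF1, which reads the CACCC box, and NF-E2, whose larger subunit is the product of Nfe2. Both domains are also known for binding sites of CTCF, a protein that marks the ends of chromatin loops. The thymus is a T cell organ, and red cells and some of their precursors can reach it with the blood.

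3 promoter sequences are shown first, since Hbb-bs, Hba-a1 and Klf1 had no promoter peak in both replicates although their promoters hold letters that erythroid factors read. They are RefSeq promoters on GRCm38.p6, 250 bases before the start to 50 after it, from 5′ to 3′ on the strand of the gene. Capitals mark the GATA words AGATAA or AGATAG and TGATAA or TGATAG, as well as the CACCC words CCACACC and CCACGCC, each searched on both strands. Hbb-bs lies at chr7:103827879-103828178 on the minus strand, Hba-a1 at chr11:32283422-32283721 on the plus strand and Klf1 at chr8:84901732-84902031 on the plus strand.
Hbb-bs promoter: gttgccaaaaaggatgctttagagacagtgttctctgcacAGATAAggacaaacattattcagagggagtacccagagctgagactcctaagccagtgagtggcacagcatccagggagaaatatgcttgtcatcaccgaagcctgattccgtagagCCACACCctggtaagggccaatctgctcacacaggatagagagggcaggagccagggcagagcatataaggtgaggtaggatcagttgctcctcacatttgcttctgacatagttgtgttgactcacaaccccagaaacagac
Hba-a1 promoter: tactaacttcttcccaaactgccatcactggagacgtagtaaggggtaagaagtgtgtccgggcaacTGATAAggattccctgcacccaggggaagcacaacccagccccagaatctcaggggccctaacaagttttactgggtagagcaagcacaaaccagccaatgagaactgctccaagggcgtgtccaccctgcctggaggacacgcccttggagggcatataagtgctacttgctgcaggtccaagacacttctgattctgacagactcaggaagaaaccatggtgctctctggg
Klf1 promoter: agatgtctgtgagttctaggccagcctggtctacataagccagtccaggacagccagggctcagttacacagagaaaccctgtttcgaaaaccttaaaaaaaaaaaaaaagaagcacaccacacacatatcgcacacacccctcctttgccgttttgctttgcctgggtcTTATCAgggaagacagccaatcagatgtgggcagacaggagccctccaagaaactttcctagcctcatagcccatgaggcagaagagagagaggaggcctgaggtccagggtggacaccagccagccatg

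The Hbb-bs promoter holds 1 GATA word and 1 CACCC word, the box through which KLF1 is known to act on adult beta globin. The Hba-a1 promoter holds 1 GATA word and none of the CACCC words, and the Klf1 promoter holds 1 GATA word read on the opposite strand. In Klf1 that word is also part of a composite of CTG and GATAA with 7 or 8 bases between them, the form that TAL1 and GATA1 are known to read together. Of 32851 RefSeq promoters of this length, 29.8% held a GATA word, 15.2% a CACCC word and 1.52% the composite. Such matches are letters in the reference sequence and are no measure of binding. The RefSeq promoter of Hbb-bt held neither a GATA nor a CACCC word, and those of Alas2 and Epor held 1 GATA word each. Slc4a1 and Nfe2 had no RefSeq promoter entry.

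The adult globin promoters were not among the open promoters of newborn thymus. The promoter of NF-E2 and, at an inner start site, that of the erythropoietin receptor were. Both replicates listed a promoter peak at Epor and Nfe2, which is 2 of the 8 genes (25.0%), against 62.2% of all 21853 coding genes. Replicate 1 had a promoter peak at 3 of the 8 genes, against 64.7% of coding genes, and replicate 2 at 2 of the 8, against 64.1%. Hbb-bs, Hbb-bt, Hba-a1, Alas2 and Slc4a1 had no promoter peak in either replicate, nor a hotspot in the promoter window. Of all coding genes, 33.4% had none in either replicate.

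Most of the 8 promoters are poor in CpG, and promoters of that kind were seldom open in this tissue, while the open ones, Epor and Nfe2, hold more CpG. Coding genes were split into 10 groups of about equal size by the number of CpG within 500 bp of the TSS. In the lowest of these, which holds Klf1 with 5 CpG, 2.26% of genes were open by this measure. In the next, which holds Hbb-bs, Hbb-bt and Alas2, as well as Hba-a1 with 9 CpG, the share was 9.73%. It was 24.8% in the group of Slc4a1 (14 CpG), 47.5% in that of Nfe2 (33 CpG) and 87.5% in that of Epor (48 CpG). Averaged over the groups of the 8 genes, the share was 25.1%, beside the 25.0% seen in the 8 genes. As a list, then, these genes were open about as often as other genes of the same CpG content. In whole tissue, fewer cells with an open promoter and less cleavage per cell cannot be told apart.

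**Figure D1:**
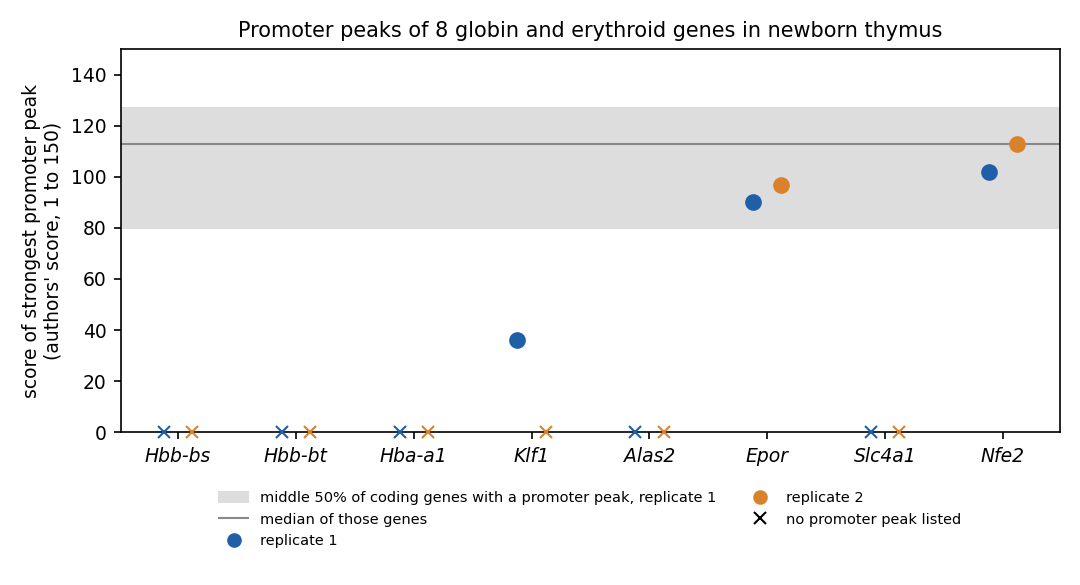
Score of the strongest promoter peak of each of the 8 genes (vertical axis, the authors' score) in replicate 1 (blue) and replicate 2 (orange), with crosses at 0 where no promoter peak was listed. Grey shows the middle 50% and the median of coding genes with a promoter peak in replicate 1. Epor and Nfe2 lie inside the grey band in both replicates, Klf1 has 1 point below it, and the other 5 genes have crosses only.

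Among the members, the adult beta globin genes come first. Hbb-bs, at chr7:103826534-103828096 on the minus strand, had no promoter peak and no distal peak in either replicate. The sequence nearest to its start sites spans 13.3 kb. Hbb-bt, at chr7:103812524-103813996 on the same strand, had no promoter peak and 1 distal peak found in both replicates. That peak lay at 6905 bp from the TSS, past the end of the gene, and scored 57 in replicate 1 and 40 in replicate 2. A second peak of Hbb-bt, scored 28 at 1665 bp, was listed in replicate 1 alone. Hba-a1, an adult alpha globin gene at chr11:32283511-32284465 on the plus strand, had neither a promoter nor a distal peak in either replicate.

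Parts of the adult globin promoters are near copies of other places, which bears on how reads can be placed there. Of the 32-base words within 500 bp of the Hba-a1 TSS, 88.0% occurred elsewhere in the genome, and so did 93.2% at its near copy Hba-a2. The share was 38.1% and 20.8% at the start sites of Hbb-bs and 30.2% at Hbb-bt. At the embryonic genes Hbb-y and Hbb-bh1 and at Hbb-bh2 it was 0%, and these also had no promoter peak. At Klf1 it was 1.75%, at Alas2 and Slc4a1 0%. Whether reads with several placements were kept is not given in the sources used here, and their part in the missing peaks of Hba-a1, Hbb-bs and Hbb-bt was not tested.

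The peaks of the beta globin region were of modest score, and all of them lay away from promoters. The region runs 60 kb past the outer globin genes on each side, chr7:103752524-103913216, and spans 160.7 kb. It held 10 peaks in replicate 1 and 8 in replicate 2, of which 7 in each overlapped a peak of the other. Over the whole genome, 67.3% of peaks of replicate 1 overlapped one of replicate 2, and 74.8% of replicate 2 one of replicate 1. There were 9 hotspots in replicate 1 and 7 in replicate 2, of which 6 in each were shared. Per 100 kb there were 4.36 shared peaks, against 3.81 over the genome. Scores lay between 24 and 58 with a median of 35 in replicate 1, and between 17 and 54 with a median of 30.5 in replicate 2. The strongest peak outranked 62.0% of all peaks in replicate 1 and 63.1% in replicate 2. None of the 12 coding genes in the region, 5 globin and 7 odorant receptor genes, had a promoter peak.

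The shared beta globin peaks are placed here by their distance from the TSS of Hbb-y, positive in the direction of transcription, on which scale Hbb-bs starts at 25.1 kb and Hbb-bt at 39.2 kb. On the upstream side, where the locus control region lies, the peak at −7.88 kb scored 51 in replicate 1 and 54 in replicate 2. The peak at −20.1 kb scored 58 in replicate 1 and 33 in replicate 2, and that at −60.0 kb scored 39 and 17. On the downstream side the peak at 46.1 kb scored 57 in replicate 1 and 40 in replicate 2, and the peak at 60.1 kb scored 25 and 30. Near the far end 2 overlapping peaks at 90.8 kb scored 30 and 43 in replicate 1 and 27 and 31 in replicate 2. In those last 2 peaks 73.1% and 67.2% of 32-base words occurred elsewhere in the genome, while the other 5 held none that did. Between −7.88 kb and 46.1 kb, the stretch that holds all 5 globin genes, no peak was shared. Hypersensitive site numbers are not annotated in the files and were not assigned.

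The hotspots ranked the same places somewhat differently. Their −log10 q-values have a cap of 100, which the hotspots at −7.88 kb, 46.1 kb and 90.9 kb reached in both replicates. Reaching the cap was common, with a genome-wide share of 45.9% in the list of replicate 1 and 43.5% in that of replicate 2. The next value below the cap was 6.0 in either list, so a capped hotspot can only be read as lying above 6.0. The hotspot at −20.1 kb was at the cap in replicate 1 and at 4.74 in replicate 2, and that at −60.0 kb had 4.47 in replicate 1 and 2.04 in replicate 2. The hotspot at 60.1 kb had 2.55 in replicate 1 and 5.52 in replicate 2. Peaks in a single replicate stood at 91.0 kb (score 24), 40.9 kb (28) and −21.4 kb (31) in replicate 1 and at −8.50 kb (19) in replicate 2.

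**Figure D2:**
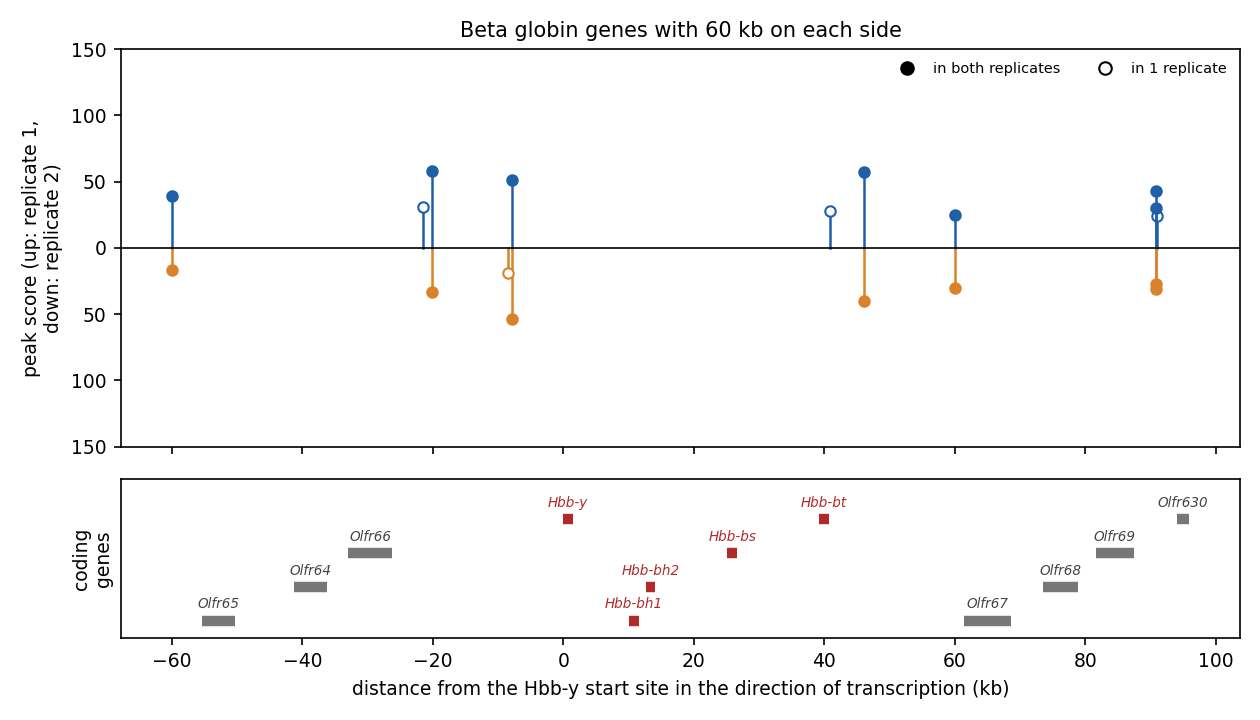
Peaks within 60 kb of the beta globin genes, by distance from the Hbb-y start site in kb (horizontal axis), with the authors' score upward for replicate 1 and downward for replicate 2. Filled points are peaks found in both replicates, and bars below mark globin genes (red) and odorant receptor genes (grey). No filled point lies between −7.88 and 46.1 kb, over the globin genes themselves, and no score exceeds 58.

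3 of these peaks are printed for the letters they hold, from the reference sequence of GRCm38 on the minus strand, which is that of the globin genes. In the peak at −7.88 kb (chr7:103861016-103861165) capitals mark the NF-E2 core TGAGTCA, which AP-1 also reads, and a GATA word on the opposite strand. In the peaks at 46.1 kb (chr7:103807016-103807165) and 60.1 kb (chr7:103793056-103793205) capitals mark the best match to the CTCF consensus of 14 bases.
Peak at −7.88 kb: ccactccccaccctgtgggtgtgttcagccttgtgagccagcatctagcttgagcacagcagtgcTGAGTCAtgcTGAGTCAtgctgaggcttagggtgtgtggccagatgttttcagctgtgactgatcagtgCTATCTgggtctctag
Peak at 46.1 kb: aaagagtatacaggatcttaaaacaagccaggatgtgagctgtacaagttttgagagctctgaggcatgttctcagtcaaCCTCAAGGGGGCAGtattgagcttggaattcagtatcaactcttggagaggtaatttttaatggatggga
Peak at 60.1 kb: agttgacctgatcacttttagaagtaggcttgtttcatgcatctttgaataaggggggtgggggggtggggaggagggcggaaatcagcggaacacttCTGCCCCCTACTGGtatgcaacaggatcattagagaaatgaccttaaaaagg

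The peak at −7.88 kb holds 2 NF-E2 cores that begin 10 bases apart. A core was present in 4.05% of the 78715 distal shared peaks, at least 2 cores in 0.158%, and 2 cores 10 bases apart in 4 peaks in all. The spacing was read from this peak, which is itself among the 4, so that count is no test of it. Tandem NF-E2 cores are a known feature of the locus control region. A GATA word was present in 18.1% of distal shared peaks and in 2 of the 7 peaks here, those at −7.88 kb and −60.0 kb. None of the 7 held a CACCC word, which 6.52% of distal shared peaks did.

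The peak at 60.1 kb matched the CTCF consensus in full, on the strand opposite to the globin genes. The peak at −60.0 kb missed it by 1 base and that at 46.1 kb by 2, both on the strand of the globin genes. A full match was present in 5.87% of distal shared peaks, a match with at most 1 mismatch in 19.7% and with at most 2 in 34.6%. In windows of the same width 1000 bp away, outside peaks of replicate 1, the shares were 0.00985%, 0.302% and 3.76%. With at most 1 mismatch 2 of the 7 beta globin peaks (28.6%) had a match, and with at most 2 mismatches 3 of the 7 (42.9%), beside the 19.7% and 34.6% of distal shared peaks. The best match at −20.1 kb missed by 4 bases, which 89.9% of distal shared peaks and 69.4% of the windows outside replicate 1 peaks reach.

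The alpha globin region held more peaks, and the strongest of them stood at the promoters of Nprl3 and Mpg. It runs over chr11:32216400-32360873, 144.5 kb, and held 30 peaks in replicate 1 and 27 in replicate 2, of which 21 and 24 overlapped a peak of the other replicate. Of the 21, 10 were promoter peaks and 11 were distal. There were 28 hotspots in replicate 1 and 27 in replicate 2, with 22 and 25 shared. Per 100 kb there were 14.5 shared peaks, against 3.81 over the genome. Scores lay between 19 and 133 with a median of 45 in replicate 1, and between 22 and 140 with a median of 46 in replicate 2. Of its 9 coding genes 6 were open at the promoter in each replicate.

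Within that region the adult and embryonic alpha globin genes stayed without promoter peaks, while the genes around them had them. Hba-a1, Hba-a2 and the embryonic Hba-x had no promoter peak and no hotspot in the promoter window in either replicate. Hbq1b, a theta globin gene whose TSS is 3.45 kb from that of Hba-a1, had a promoter peak of 44 in replicate 1 and 52 in replicate 2. Its near copy Hbq1a had 44 in replicate 1 and 48 in replicate 2. Words of 32 bases that recur made up 43.6% within 500 bp of the Hbq1b TSS and 43.7% at Hbq1a. So of the 10 coding globin genes in both regions, only these 2 had a promoter peak in both replicates.

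Nprl3, whose product belongs to a complex that restrains mTORC1 and whose introns hold the known alpha globin enhancers, had the strongest promoter of the region, 133 in replicate 1 and 140 in replicate 2. The promoter of Mpg, a DNA repair glycosylase gene, scored 115 in replicate 1 and 123 in replicate 2. Rhbdf1 had 64 in replicate 1 and 46 in replicate 2, and Sh3pxd2b had 46 in both. The Nprl3 peak outranked 99.0% of all peaks in replicate 1 and 99.2% in replicate 2, and that of Hbq1b 46.6% and 61.3%.

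Distal alpha globin peaks are placed from the TSS of Hba-x, positive in the direction of transcription, where Hba-a1 starts at 7.11 kb. Far upstream of the globin genes 5 distal peaks were shared. The peak at −59.3 kb in an exon of Rhbdf1 scored 96 in replicate 1 and 79 in replicate 2. Inside Nprl3, the peak at −37.7 kb scored 89 in both replicates, that at −39.2 kb scored 69 in replicate 1 and 47 in replicate 2, that at −29.1 kb scored 78 and 42, and that at −28.5 kb scored 55 in both. Downstream, past the theta genes, the peak at 48.5 kb scored 99 in replicate 1 and 98 in replicate 2. The peak at 45.0 kb scored 92 in replicate 1 and 68 in replicate 2, that at 64.9 kb scored 75 and 63, that at 66.6 kb scored 85 and 55, and that at 73.3 kb scored 49 and 31.

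Between the −28.5 kb peak and the Nprl3 promoter at −8.73 kb no peak was shared. Replicate 1 alone listed weak peaks in Nprl3 introns there, scored 19 at −14.7 kb, 22 at −11.1 kb, 20 at −10.8 kb and 30 at −9.33 kb. The lowest of these outranked 4.76% of the peaks of that replicate. The one at −9.33 kb lay 476 bp from an Nprl3 start site, which makes it a promoter peak by the definition used here. Hotspots of both replicates at that promoter covered it. Nearer to the globin genes, the peak at −5.03 kb scored 23 in replicate 1 and 22 in replicate 2. From there to the Hbq1b promoter, over Hba-x and Hba-a1, neither replicate listed a peak.

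**Figure D3:**
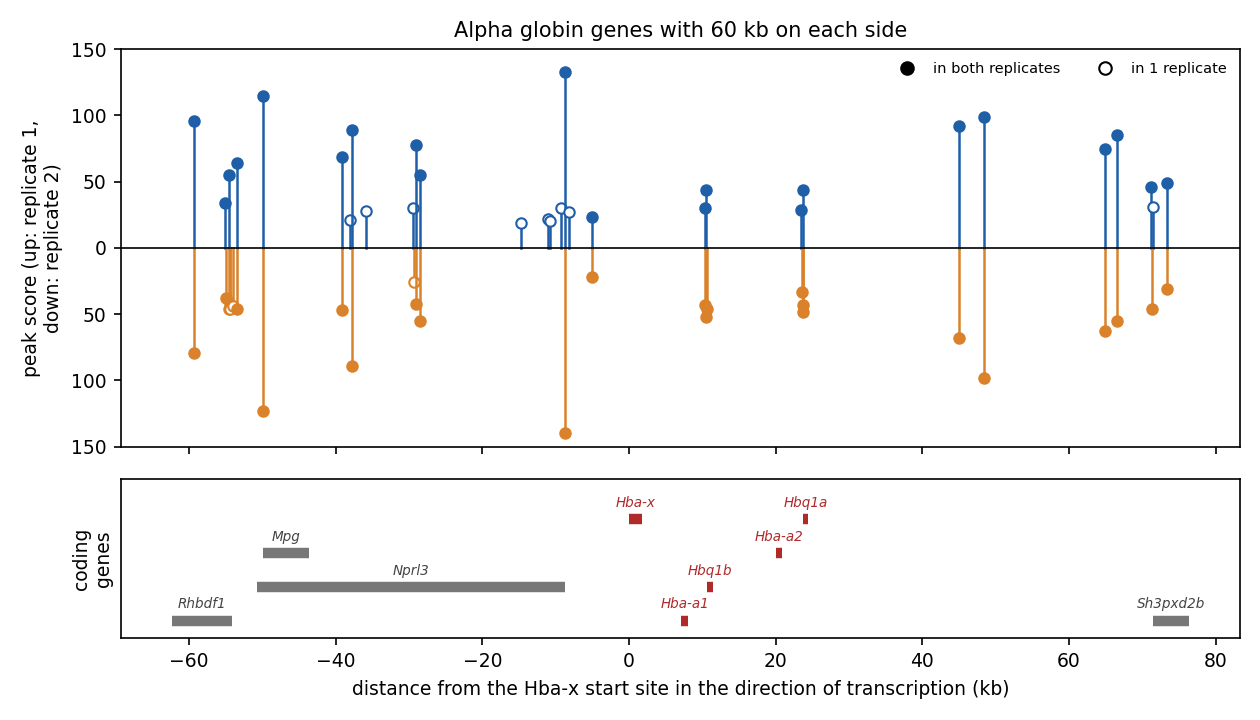
Peaks within 60 kb of the alpha globin genes, by distance from the Hba-x start site in kb (horizontal axis), with the authors' score upward for replicate 1 and downward for replicate 2. Filled points are peaks found in both replicates, and bars below mark globin genes (red) and other coding genes (grey). The highest points, 133 and 140, stand at the Nprl3 promoter, the points at the theta genes reach 44 and 52, and Hba-x, Hba-a1 and Hba-a2 have none at their starts.

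With at most 1 mismatch, 6 of the 11 distal shared peaks of the alpha globin region (54.5%) had a match to the CTCF consensus, beside the 19.7% of all distal shared peaks, and none matched in full. With at most 2 mismatches it was the same count, beside 34.6%. The 6 stood at −59.3, −37.7, −29.1, 45.0, 64.9 and 66.6 kb. On the strand of the globin genes were those at −59.3, −29.1 and 66.6 kb, and on the opposite strand those at −37.7, 45.0 and 64.9 kb. The stronger promoter peaks of Hbq1b and Hbq1a also matched with 1 mismatch, both on the opposite strand. None of the 11 distal peaks held a GATA word or an NF-E2 core, which 18.1% and 4.05% of all distal shared peaks did. A peak from each side of the globin genes is printed on the plus strand of GRCm38, that at −37.7 kb (chr11:32238576-32238725) and that at 45.0 kb (chr11:32321276-32321425), with the CTCF match in capitals.
Peak at −37.7 kb: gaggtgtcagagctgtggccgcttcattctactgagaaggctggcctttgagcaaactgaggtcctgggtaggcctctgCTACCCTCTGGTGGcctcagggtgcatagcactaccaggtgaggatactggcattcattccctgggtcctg
Peak at 45.0 kb: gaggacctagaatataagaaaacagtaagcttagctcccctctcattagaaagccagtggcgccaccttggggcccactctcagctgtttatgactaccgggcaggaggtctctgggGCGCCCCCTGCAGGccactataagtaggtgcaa

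Klf1, the gene of the erythroid factor that acts on adult beta globin, was open inside the gene and not at its start. It lies at chr8:84901928-84905291 on the plus strand. A promoter peak was listed in replicate 1 alone, at 743 bp in an intron, with a score of 36 that outranked 34.0% of peaks. Hotspots reached into the promoter window in both replicates. Both replicates had 3 shared peaks in the gene body. The foremost scored 112 at 1263 bp in replicate 1 and 114 at 1283 bp in replicate 2, within a coding exon, and outranked 93.6% and 92.6% of peaks. The next scored 97 in replicate 1 and 122 in replicate 2, at 1603 and 1563 bp, and the last, in an intron at 2603 bp, scored 62 and 61.

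Over coding genes the mean was 3.15 distal shared peaks per gene and the median 1, so the count at Klf1 was near the mean. The sequence nearest to its start spans 7.32 kb, against a median of 46.4 kb over coding genes. The next coding genes on each side, Gcdh and Dnase2a, had promoter peaks of 133 and 110 in replicate 1 and of 121 and 103 in replicate 2. The foremost Klf1 peak (chr8:84903116-84903265, plus strand) is printed with its CpG in capitals, since the start of Klf1 falls among the poorest in CpG while this peak is dense in it.
Klf1 peak: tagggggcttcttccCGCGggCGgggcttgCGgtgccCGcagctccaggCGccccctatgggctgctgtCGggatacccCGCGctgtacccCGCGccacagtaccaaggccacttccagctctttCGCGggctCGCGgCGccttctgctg

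It holds 16 CpG in 150 bases with a GC content of 71.3%. Distal shared peaks had a median of 2 CpG, and 1.08% of them had at least 16. None of the 3 Klf1 peaks in the gene body held a GATA word, which 18.1% of distal shared peaks did. The peak at 1603 bp held a CACCC word, which 6.52% of distal shared peaks did.

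Nfe2, the gene of the larger NF-E2 subunit, had the highest promoter score among the 8 genes when the strongest peak of each was taken. With the peak nearest to a start site its mean was 64.0, below the 93.5 of Epor. It lies at chr15:103248212-103258403 on the minus strand and has 10 coding start sites. Its promoter peak scored 102 in replicate 1 and 113 in replicate 2, a mean of 107.5 ± 7.78 (SD, n = 2), at −208 and −188 bp from the outermost TSS. It outranked 90.2% of peaks in replicate 1 and 92.3% in replicate 2, and the strongest promoter peaks of 37.6% and 42.3% of the coding genes that had one. A second promoter peak, at 28 and 48 bp from an inner TSS, scored 69 in replicate 1 and 59 in replicate 2. A distal peak in an intron, at 1094 and 1074 bp, scored 43 in replicate 1 and 57 in replicate 2. On either side Hnrnpa1, which encodes an RNA-binding protein, had promoter peaks of 129 and 140, and Copz1, which encodes a coat protein of vesicles, of 133 and 138.

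The outer Nfe2 promoter peak (chr15:103258536-103258685, minus strand) is printed because it was the only shared promoter peak of these genes with a GATA word. Capitals mark a GATA word near its end and, before it, the composite of CTG and GATAA.
Nfe2 promoter peak: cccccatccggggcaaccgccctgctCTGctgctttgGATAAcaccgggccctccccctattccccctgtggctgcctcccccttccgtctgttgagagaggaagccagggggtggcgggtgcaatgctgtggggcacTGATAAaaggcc

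Of 25221 promoter shared peaks, 9.12% held a GATA word and 0.365% the composite. The distal Nfe2 peak also held a GATA word. The second promoter peak held a CACCC word, which 11.1% of promoter shared peaks did.

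Epor, the gene of the receptor through which erythropoietin keeps red cell precursors alive, lies at chr9:21958897-21963506 on the minus strand. Its promoter peak scored 90 in replicate 1 and 97 in replicate 2, a mean of 93.5 ± 4.95 (SD, n = 2). It stood at −67 and −27 bp from the inner of its 2 coding start sites, inside an intron of the longer transcript. From the outer start it lay 0.875 kb into the gene in replicate 1 and 0.915 kb in replicate 2. The RefSeq promoter with the GATA word, chr9:21963527-21963826, is near the outer start and held no peak. The Epor promoter peak outranked 84.7% of peaks in replicate 1 and 87.8% in replicate 2. Among coding genes with a promoter peak it outranked 29.5% and 31.5%, so it was weaker than most. No distal peak of Epor was shared, and replicate 2 alone listed one, scored 26. The neighbour Swsap1 had 130 in replicate 1 and 139 in replicate 2, and the other neighbour, Rgl3, had 67 and 43. The Epor peak (chr9:21962556-21962705, minus strand) is printed with its CpG in capitals for comparison with Klf1.
Epor peak: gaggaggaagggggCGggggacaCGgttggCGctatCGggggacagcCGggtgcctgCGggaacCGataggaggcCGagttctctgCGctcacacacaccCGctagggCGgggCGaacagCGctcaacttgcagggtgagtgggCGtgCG

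It holds 15 CpG with a GC content of 69.3%, and no GATA or CACCC word. Promoter shared peaks had a median of 10 CpG, and 30.6% of them had at least 15.

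Alas2, the erythroid gene of the enzyme that starts heme synthesis, lies at chrX:150547375-150570638 on the plus strand and had no peak at either of its 2 coding start sites. Its 2 distal shared peaks lay far upstream. The peak at −36.5 kb scored 55 in replicate 1 and 47 in replicate 2, and that at −35.9 kb scored 19 and 21 and held a GATA word. Replicate 2 listed 2 further weak peaks, scored 18 and 15. Apex2, whose gene overlaps Alas2 and whose start is the nearest on that side, had a promoter peak of 90 in replicate 1 and 89 in replicate 2. Alas1, the form of the enzyme used in all cells, had 96 and 98.

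Slc4a1, the gene of the red cell anion exchanger, lies at chr11:102348824-102366203 on the minus strand and had no promoter peak. Its 2 distal shared peaks were weak, 31 in replicate 1 and 18 in replicate 2 at −10.2 kb, and 43 and 31 at −12.0 kb. Replicate 1 listed 3 more past the gene, scored between 19 and 25. Neighbouring promoters were open, with 100 in replicate 1 and 122 in replicate 2 at Ubtf and 100 and 106 at Rundc3a.

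Over the 8 genes there were 9 distal shared peaks, 3 at Klf1, 2 each at Alas2 and Slc4a1 and 1 each at Hbb-bt and Nfe2. At least 1 was present at 5 of the 8 genes, against 65.0% of all coding genes. The 9 ranged in score between 19 and 112 in replicate 1 and between 18 and 122 in replicate 2, with the lowest at Alas2 and Slc4a1 and the highest at Klf1.

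**Figure D4:**
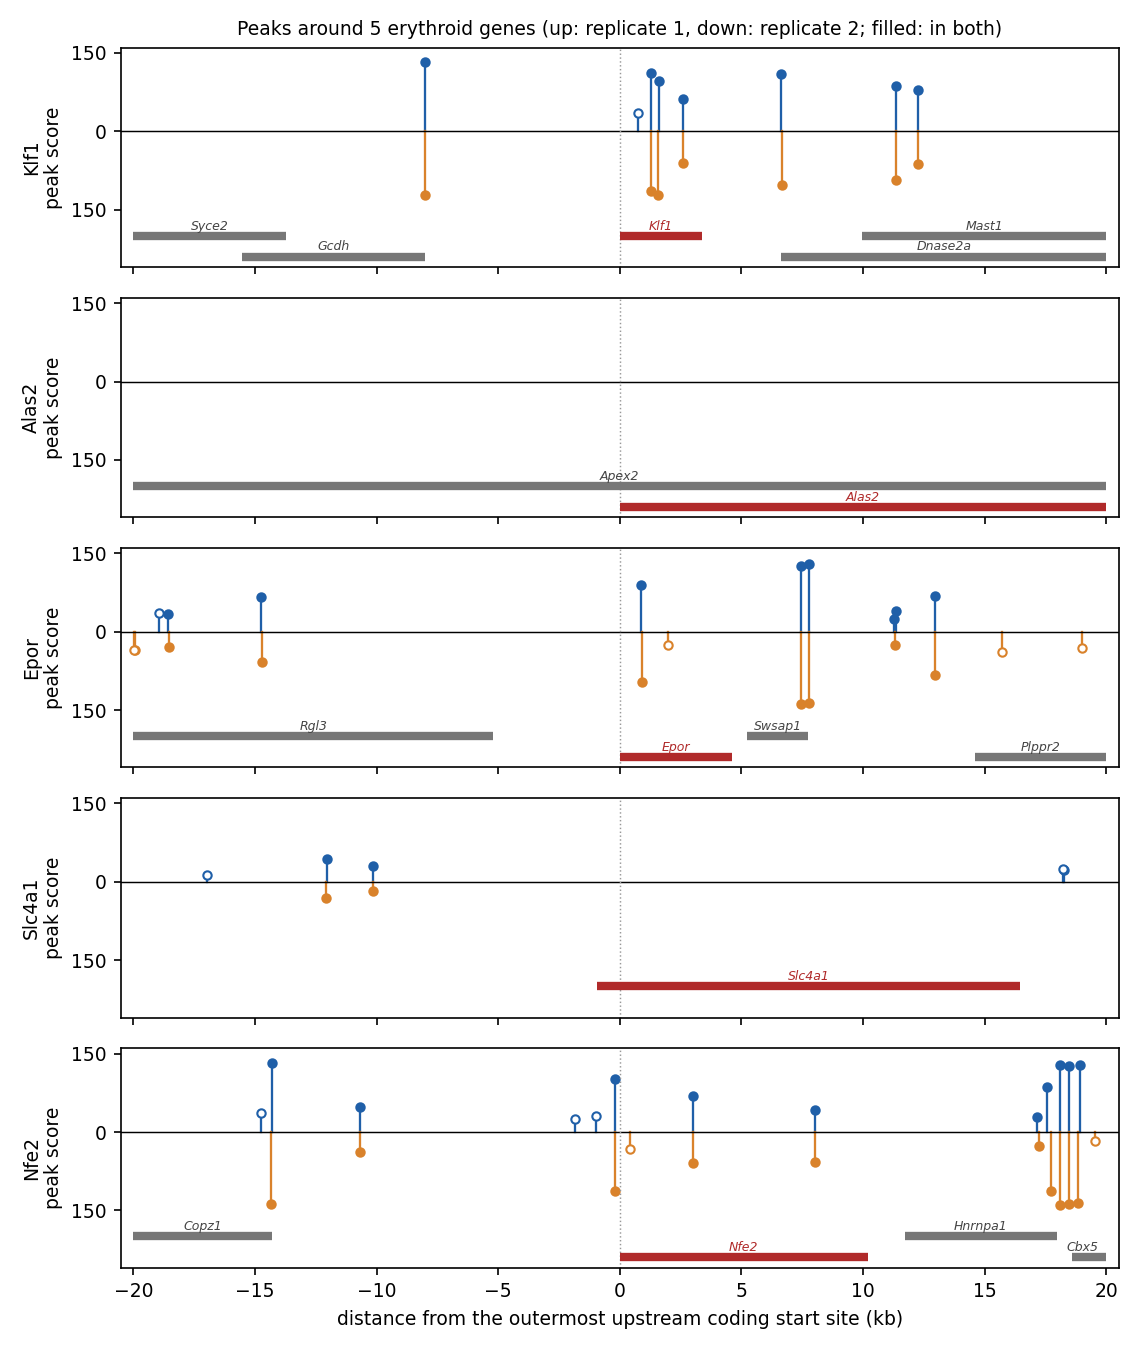
Peaks within 20 kb of the outermost coding start site of Klf1, Alas2, Epor, Slc4a1 and Nfe2 (horizontal axis, kb in the direction of transcription), with the authors' score upward for replicate 1 and downward for replicate 2. Filled points are peaks found in both replicates, and bars mark the named gene (red) and other coding genes (grey). Klf1 has its 3 filled points inside the gene, Epor and Nfe2 have points near a start, and the Alas2 panel shows gene bars without points. The distal shared peaks of Alas2, at −36.5 and −35.9 kb, lie outside the stretch shown.

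The rest of the erythroid programme was read from 7 lists of genes. Of 94 genes found in the annotation, 79 (84.0%) had a promoter peak in both replicates, beside 62.2% of all coding genes. The average share in the CpG groups of the same genes was 74.3%. Most of those not open belonged to the lists of globin genes, of the red cell membrane and of terminal red cell genes.

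All 18 erythroid transcription factors and partners were open, where the CpG groups gave 83.6%. Zfpm1, the gene of the GATA1 partner FOG1, had promoter peaks of 133 in replicate 1 and 140 in replicate 2 and 20 distal shared peaks. Klf3 had the most distal shared peaks, 31, followed by 26 each at Bach1 and Cbfa2t3. Gata1 and Tal1, named here after their values were seen, were weaker, with 68 in replicate 1 and 57 in replicate 2 at Gata1 and 41 and 37 at Tal1. Many genes of this list also act in other blood cells.

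The heme and iron genes were open with few exceptions. All 8 heme synthesis enzymes other than Alas2 had a promoter peak in both replicates, where the CpG groups gave 87.1%, and Urod scored 131 in replicate 1 and 135 in replicate 2. Of 16 genes of iron uptake and mitochondrial heme transport 15 were open, where the CpG groups gave 90.1%. The weakest of the 15, Slc40a1, scored 23 in replicate 1 and 18 in replicate 2, which outranked 9.64% and 7.52% of peaks. Fth1, the ferritin heavy chain gene, had 140 in replicate 1 and 141 in replicate 2. The exception was Slc25a37, the gene of the mitochondrial iron importer mitoferrin, which had no promoter peak or hotspot in either replicate and 5 distal shared peaks. It falls in a CpG group in which 92.8% of genes were open. All 10 erythropoietin signalling genes were open, where the CpG groups gave 87.8%, with 136 in replicate 1 and 146 in replicate 2 at Bcl2l1.

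The membrane and terminal lists held most of the closed genes. Of 20 membrane and blood group genes 14 (70.0%) were open, where the CpG groups gave 58.8%. Among the others Epb42, Rhag, Rhd and Aqp1 had no promoter peak in either replicate, and Ermap had one of 35 in replicate 1 alone. Epb41, whose product ties spectrin to actin in many cells, had 121 in replicate 1 and 136 in replicate 2. Of 15 terminal genes 12 (80.0%) were open, where the CpG groups gave 73.8%. Car1, a carbonic anhydrase gene of red cells, and Trim10 had none, and Trim58 had one of 20 in replicate 1 alone. Of 7 other globin genes only Hbq1a and Hbq1b were open (28.6%), where the CpG groups gave 26.0%.

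Lists of other cell types were read in the same way, among them T lineage genes, which the thymus is known to use. All 10 T lineage genes were open, although their CpG groups gave only 39.9%, and Lck, the T cell kinase gene, had 131 in replicate 1 and 129 in replicate 2. Rag2 and Ptcra share the CpG group of the adult globin genes and had 113 in both replicates at Rag2, and 97 in replicate 1 and 103 in replicate 2 at Ptcra. Of 10 megakaryocyte genes 1 was open, Gp5 with 35 in replicate 1 and 25 in replicate 2, where the CpG groups gave 15.8%. Of 10 mast cell genes 2 were open, where the CpG groups gave 25.0%. These were Kit, with 128 in replicate 1 and 117 in replicate 2, and Gata2, with 50 and 42.

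**Figure D5:**
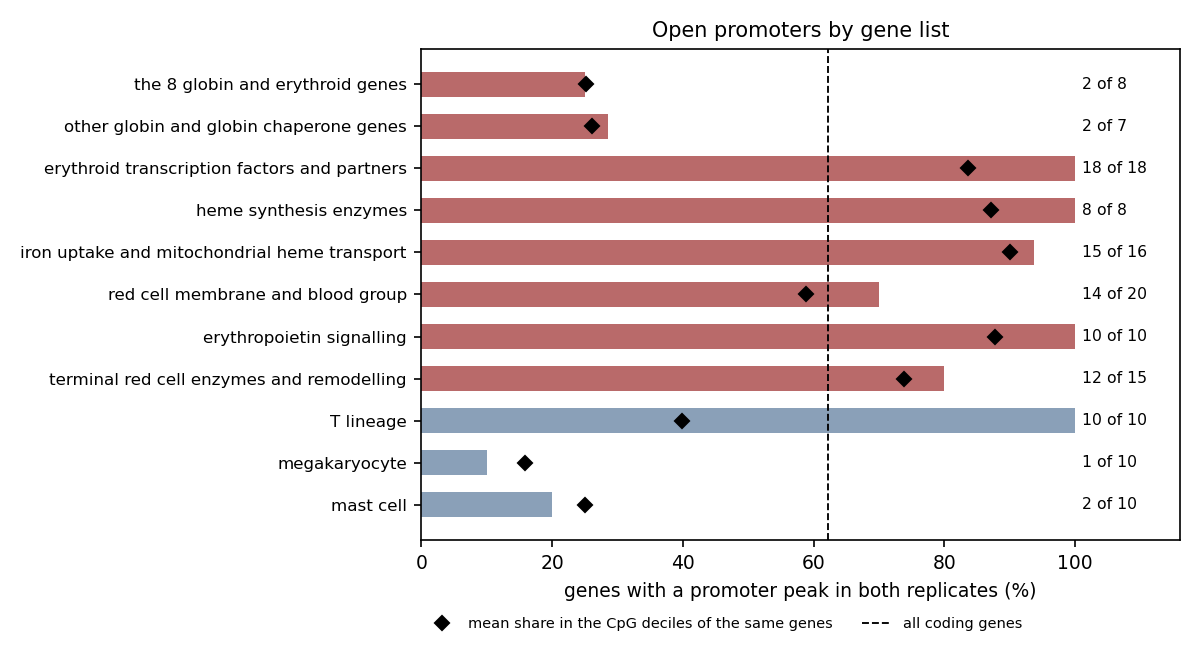
Percent of genes with a promoter peak in both replicates (horizontal axis) for each gene list, erythroid lists in red and other cell types in blue, with counts at the right. Diamonds give the mean share over the CpG groups of the same genes and the dashed line the 62.2% of all coding genes. The bar of the 8 globin and erythroid genes ends at its diamond, at 25.0% and 25.1%, while the T lineage bar ends at 100% beside a diamond at 39.9%.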

How the data were processed

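The peak and hotspot lists were used as the authors deposited them, on mm10 per the labels, and each list was made from a single library per the text deposited with the files. Aligner, callers, thresholds and library sizes are not stated there or in the labels, so depth is unknown and limits how firmly an absent peak can be read. The deposited peaks carry the authors' score, and the deposited hotspots a −log10 q-value with a cap of 100. Replicate 1 had 154812 peaks and 135932 hotspots, replicate 2 had 139702 and 121064. In replicate 1, 21 peaks were listed more than once with the same coordinates, in replicate 2 39, and each was counted once.

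The midpoint of a peak set its distance to coding start sites of GENCODE M21 (54361 sites). A shared peak has at least 1 bp in common with a peak in the list of the other library. Python 3.11.15, numpy 2.4.6 and pandas 2.3.3 were used, and the counting was tested on simulated data. With 1 group of 2 replicates no test between groups was possible, so counts stand beside the same over all coding genes. The members and the lists were chosen with earlier results of these data known. Named are the 8 genes, all genes with a start in the globin regions, the next coding gene on each side, and in each list the 4 with the highest promoter score, the 4 with the most distal shared peaks and up to 6 with no promoter peak. Rag2, Ptcra, Gata1, Tal1, Slc40a1 and the genes with a promoter peak in a single replicate were named after their values were seen. Mismatched CTCF matches, recurring words, pairs of NF-E2 cores and CpG per peak were added after seeing the data. Of the 8 genes 6 matched a RefSeq promoter.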

Additional observations from a re-analysis of the deposited data

How the results depend on the processing

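The 2 genes with a promoter peak in both replicates, Epor and Nfe2, kept it in promoter windows of 500 and 2500 bp, with start sites of all transcripts, among the stronger 50% of peaks and with hotspots for peaks. Klf1 joined them at 2500 bp and with hotspots, which made 3. The 9 distal shared peaks became 4 among the stronger 50% of peaks, 6 at 2500 bp, and 12 to 14 when either list was used without the other replicate. The 7 shared peaks of the beta globin region became 1 among the stronger 50%, 4 with a flank of 30 kb in place of 60 kb, and 8 to 10 in a single replicate. The 21 of the alpha globin region became 14 among the stronger 50%, 10 with 30 kb, and 27 to 30 in a single replicate. A shorter flank takes in less sequence by construction. The genes open in the 7 erythroid lists numbered between 70 and 81 in all settings run, with 79 as reported, and single replicates gave 2 to 3 of the 8 genes. With the peak nearest to a start site, the Nfe2 promoter score was 64.0 in place of 107.5, below the 93.5 of Epor. A 300 bp window raised the share of distal shared peaks with a GATA word to 36.6%. No paired analysis was possible because there is 1 group. With 2 replicates and unknown depth, a peak missing from a list is not shown to be absent.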

Other observations

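The theta globin promoters of Hbq1b and Hbq1a had the same gap between neighbouring hotspots, while the outer edges of those hotspots differed. At Hbq1b the first hotspot ended and the next began with 34 bases between them, from −70 to −37 bp of the TSS, in both replicates. At Hbq1a the gap was again 34 bases, from −69 to −36 bp, in both replicates. In the peaks that cover these places, 47.9% of 32-base words at Hbq1b and 37.0% at Hbq1a occurred elsewhere in the genome. The part of such words in the gap was not tested.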
